A study of Homo sapiens with 18 samples.

Results

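The ADP-ribosyltransferases here are 10 genes with a PARP catalytic domain other than PARP1 and PARP2, the named targets of inhibitors and siRNAs. They were taken by gene symbol from both expression tables of the series, where all 10 were found among 22027 features in either table. PARP9, PARP10, PARP12 and PARP14 form a group of 4 interferon-inducible genes, and PARP3, PARP4, PARP6, PARP8, TNKS and TNKS2 form the other 6. RNA was sequenced from LNCaP, an established androgen-responsive prostate cancer cell line, in 18 libraries that make 9 groups with 2 libraries in each, which the series calls biological duplicates. In 4 groups the cells were exposed for 24 h either to DMSO, the solvent, or to 1 inhibitor at 10 uM, which was UPF1069, olaparib or veliparib. In the other 5 groups the cells were transfected for 72 h with siNC, the control siRNA, or with siPARP1_A, siPARP1_B, siPARP2_A or siPARP2_B, which are siRNA sequences A and B against PARP1 and PARP2. Olaparib and veliparib block PARP1 and PARP2, and UPF1069 is sold as a PARP2 inhibitor. Whether the compounds at 10 uM also block enzymes of the 10 genes was not measured. All groups share the parental line and medium with serum, and the results describe 1 cell line.

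ADP-ribosyltransferases use NAD to attach ADP-ribose to proteins. PARP1, PARP2 and the tankyrases TNKS and TNKS2 build chains of it, whereas most of the remaining family attaches single units. PARP9, PARP10, PARP12 and PARP14 are induced by interferon in many cell types and act in antiviral and stress responses, and PARP9 works in a complex with the ubiquitin ligase DTX3L. Tankyrases mark axin and other partners for ubiquitylation by RNF146, which releases beta-catenin signalling, and they free telomeres from TERF1. PARP4 is a protein of the vault particle, PARP3 acts in the joining of DNA ends, and PARP6 and PARP8 are less studied members.

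The promoters of PARP14 and PARP12 are shown because they hold the letters that interferon-activated factors are known to bind, and because these genes and PARP9 carried the largest differences of the interferon-inducible group. Each window is the 250 bases before the RefSeq start of transcription on build GRCh38.p14, written 5′ to 3′ on the strand of the gene, and capitals mark motif matches. PARP14 lies on the plus strand and its window is chr3:122680589-122680838, while PARP12 lies on the minus strand with the window chr7:140062952-140063201.
PARP14 promoter: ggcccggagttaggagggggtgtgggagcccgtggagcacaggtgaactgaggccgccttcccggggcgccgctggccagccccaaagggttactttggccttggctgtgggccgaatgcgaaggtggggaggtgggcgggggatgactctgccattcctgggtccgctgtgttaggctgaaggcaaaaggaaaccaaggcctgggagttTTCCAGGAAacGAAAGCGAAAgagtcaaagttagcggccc
PARP12 promoter: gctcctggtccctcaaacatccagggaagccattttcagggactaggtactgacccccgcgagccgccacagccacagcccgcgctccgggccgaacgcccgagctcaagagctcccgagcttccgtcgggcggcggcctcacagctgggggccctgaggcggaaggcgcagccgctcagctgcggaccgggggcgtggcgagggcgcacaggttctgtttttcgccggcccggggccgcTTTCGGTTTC
Motifs searched on both strands were the core of the interferon-stimulated response element, GAAA followed by any 2 bases and GAAA, and the gamma-activated site, TTCNNNGAA, which reads the same on both strands. Positions are counted back from the start, with -1 as the last base before it. The PARP14 window held TTCCAGGAA from position -40 and GAAAGCGAAA from position -29, which do not overlap. In the PARP12 window the response element lay on the reverse strand, as TTTCGGTTTC from position -10. Of 27305 promoter windows of the same length, 3.07% held the response element core and 6.78% the gamma-activated site. The letters of neither motif were in the windows of PARP9, DTX3L, PARP3, PARP6, PARP8 or TNKS2. The windows of PARP9, chr3:122564785-122565034 on the minus strand, and DTX3L, chr3:122564088-122564337 on the plus strand, flank the stretch between their starts. That stretch was not searched. The windows of PARP4, PARP10 and TNKS were not analysed here. A match describes the letters of the window and is no measured binding.

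The inhibitor table gives counts per M reads of a scaled library size (CPM) and the siRNA table normalised reads per M, and the depth recovered from their steps was 26.43 to 35.7 M for the former and 15.45 to 18.62 M for the latter. A count of 3 reads, the limit that a count of 0 allows, equals 0.0841 to 0.113 CPM or 0.169 to 0.207 normalised reads per M, which covers counting error only. The targeted transcripts matched the labels: PARP1 stood at 452 and 479 with siNC and at 4.78 to 9.05 over the 4 siPARP1 libraries, and PARP2 at 28.96 and 25.8 with siNC and at 1.01 to 3.06 over the 4 siPARP2 libraries. siPARP2_B also had less PARP1, at 160 and 145, between the levels with siNC and with the siPARP1 sequences. The 9 luminal prostate markers checked all passed the filter on low values in both tables. Summed basal markers reached at most 1.07 and summed immune markers at most 0.313 in any library, while the collagen genes COL1A1 and COL3A1 and the endothelial gene VWF also passed.

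Differences are given in log2(value + 1), a scale that makes changes of low genes look smaller. They come from limma with Benjamini-Hochberg adjustment over all genes tested in a comparison, which were 13337 for inhibitors and 12701 for siRNAs. A gene is said to have risen or fallen where its adjusted p was below 0.05. With 2 libraries per group, these p-values rest on the spread between duplicates over all groups of a table. limma also draws the spread of each gene towards that of genes of similar level. The 3 inhibitor comparisons share the DMSO libraries, and the 4 siRNA comparisons share the siNC libraries. Since fewer cells of a kind and less RNA per cell cannot be told apart in bulk RNA, levels refer to the library as a whole.

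Per kilobase of exon, TNKS2, PARP10 and PARP4 were the most abundant members with DMSO and PARP14, PARP8 and PARP6 the least. Mean levels per kilobase with DMSO were 17.2 CPM for TNKS2, 14.4 for PARP10 and 13.0 for PARP4, then 5.35 for PARP3, 4.29 for TNKS, 4.18 for PARP12 and 3.98 for PARP9. TNKS and PARP12 lay within 1 SD of each other. PARP8 had 0.575, PARP14 0.274 and PARP6 0.0314 CPM per kilobase. With siNC the order began with PARP4 at 17.9 and TNKS2 at 16.7 normalised reads per M per kilobase, followed by PARP9 at 6.32. PARP3 at 4.03, PARP10 at 3.93 and TNKS at 3.86 lay within 1 SD of each other, above PARP12 at 2.27. The tables were normalised separately, so the levels of the control groups are not compared across them.

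PARP6 was close to the limit of detection in these libraries. It had 3 to 9 reads in the inhibitor libraries, 0.107 to 0.284 CPM, and 0 to 5 reads in the siRNA libraries, and it was the 1 member that did not pass the filter of a mean of at least 1. The other 9 passed in both tables and were tested. In GENCODE v29, 356 of the 7696 exon bases of PARP6 are shared with AC009690.3 on the same strand, where reads could be assigned to neither gene. That annotation is on build GRCh38, whereas the deposited values used hg19. Whether the low count of PARP6 reflects little RNA or reads lost in counting was not tested. PARP9 shares 217 exon bases with DTX3L on the opposite strand, PARP10 shares 324 with GRINA and 197 with SPATC1, and TNKS shares 607 with the antisense gene AC021242.3. The labels do not state that strand was used in counting, so reads of those stretches cannot be assigned to a strand.

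With UPF1069, PARP14, a macrodomain protein of interferon and interleukin signalling, was the 1 of the 9 tested members that passed, against 24.3% of all genes. PARP14 had 2.63 and 3.118 CPM with DMSO, 4.13 and 4.01 with UPF1069, 2.66 and 2.24 with olaparib and 4.04 and 4.08 with veliparib. The UPF1069 and veliparib libraries all lay above those with DMSO, and the olaparib libraries overlapped DMSO. PARP14 rose by 0.39 with UPF1069 (SE 0.11, adjusted p = 0.012) and by 0.39 with veliparib (adjusted p = 0.0074), which is 1.42-fold and 1.41-fold as a ratio of means. With UPF1069 the call was lost without DMSO replicate 1 (adjusted p = 0.155), without UPF1069 replicate 1 (0.0886) or replicate 2 (0.064), and with DESeq2 (0.0934). With veliparib it was lost without DMSO replicate 1 (adjusted p = 0.11), with DESeq2 (0.064) and once GC content and exon length were corrected for (0.112).

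PARP10, a mono-ADP-ribosyltransferase first found as a partner of MYC, was lower with olaparib and lowest with veliparib. It had 90.9 and 83.2 CPM with DMSO, 87.4 and 88.6 with UPF1069, 76.7 and 74.3 with olaparib and 63.5 and 66.0 with veliparib. The olaparib and veliparib libraries lay below both DMSO libraries and did not overlap each other, while UPF1069 lay within the DMSO range. PARP10 fell by 0.20 with olaparib (SE 0.047, adjusted p = 0.0010), a call lost without DMSO replicate 1 (adjusted p = 0.062). With veliparib the difference was -0.42 (SE 0.047, adjusted p = 3.76e-07), but with GC content and exon length corrected for it was -0.015 (adjusted p = 0.813). The exons of PARP10 have a GC content of 66.9%, the highest among the members, and over all genes the veliparib difference had a Spearman correlation of -0.689 with GC content, against 0.107 for UPF1069 and -0.118 for olaparib.

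PARP9 and PARP12 did not pass with any inhibitor against DMSO. PARP9, which with DTX3L adds ubiquitin to histones and viral proteins, had 36.7 and 34.4 CPM with DMSO, 37.2 and 37.1 with UPF1069, 32.0 and 33.1 with olaparib and 40.1 and 37.2 with veliparib. Its difference was 0.063 with UPF1069, -0.12 with olaparib (adjusted p = 0.0664) and 0.12 with veliparib (adjusted p = 0.1), although no olaparib or veliparib library overlapped DMSO. The olaparib difference of PARP9 passed with edgeR (adjusted p = 0.0491) and after GC and length correction (0.0257). Its veliparib difference passed with edgeR (adjusted p = 0.0476) and without veliparib replicate 2 (0.17, adjusted p = 0.0084), and was 0.0042 after GC and length correction. PARP12, a zinc finger protein of the Golgi and stress granules, had 27.0 and 25.5 CPM with DMSO and 24.2 to 27.5 over the 6 inhibitor libraries, with differences of 0.059, -0.097 and -0.068. DTX3L, the partner of PARP9, had 38.6 and 39.7 CPM with DMSO and rose with veliparib to 44.2 and 43.3 (difference 0.16, adjusted p = 0.0247), a call lost without DMSO replicate 1 (adjusted p = 0.169) or replicate 2 (0.0666), with DESeq2 (0.0507) and after GC and length correction (0.138).

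**Figure D1:**
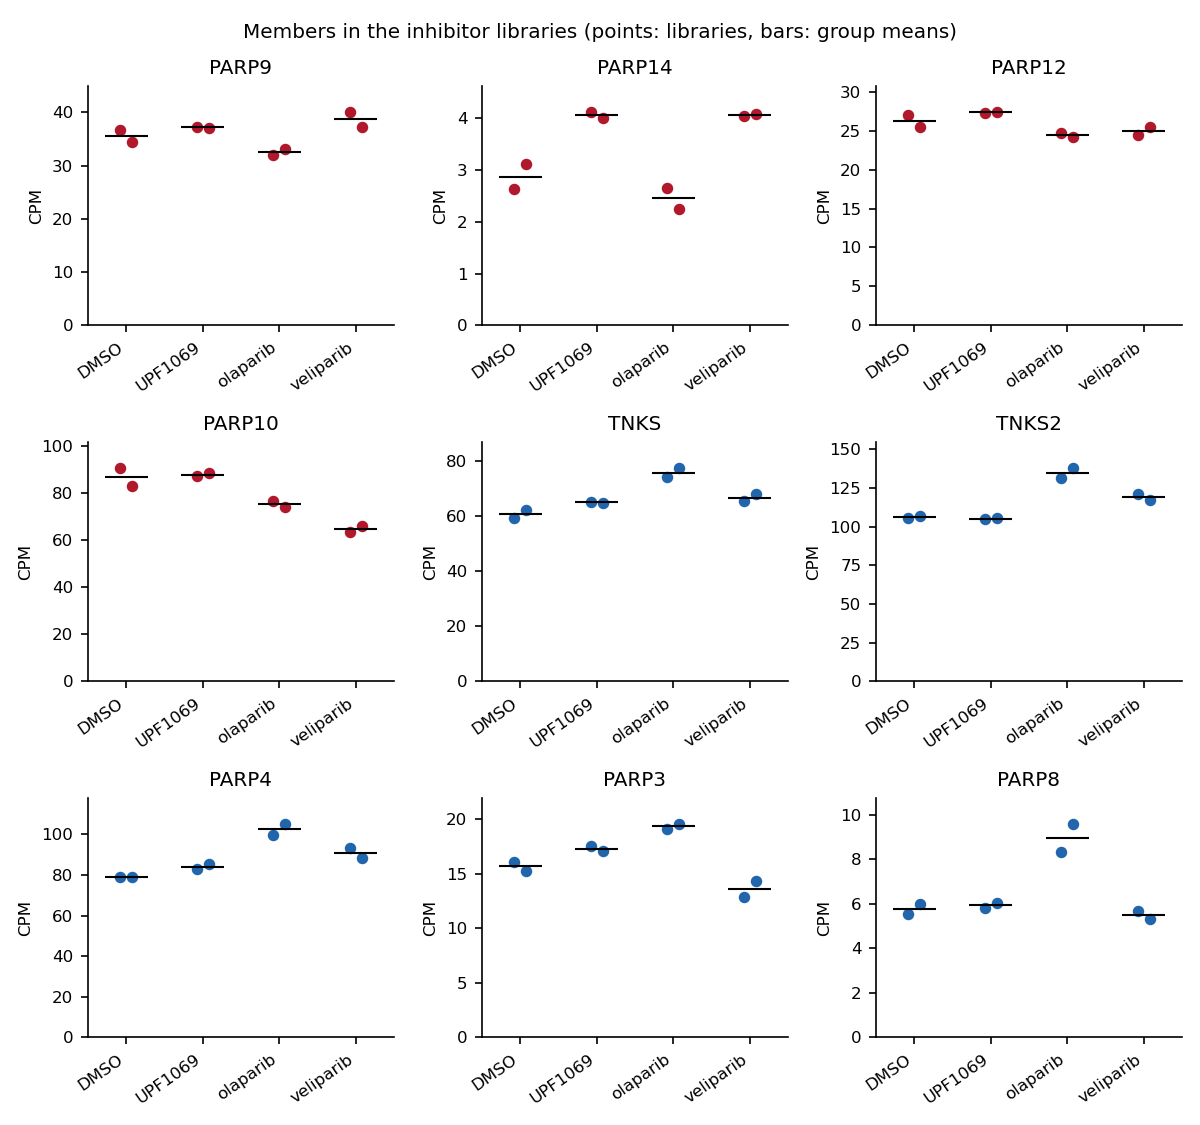
Level in CPM of the 9 tested members in each inhibitor library, with points for libraries and bars for group means, interferon-inducible genes in red and the others in blue. The olaparib libraries of PARP4, PARP8, TNKS and TNKS2 lie above all other libraries, and in the PARP10 panel the veliparib libraries lie lowest, at 63.5 and 66.0.

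The list of 44 interferon-stimulated genes, which holds none of the members, had called genes in both directions with each inhibitor. Of 35 list genes tested, 8 rose and 2 fell with UPF1069, where 10.3% of all genes rose and 14.0% fell. With olaparib 3 rose and 10 fell, against 25.8% and 26.8% of all genes, led by OAS3 at -1.11, an antiviral oligoadenylate synthetase. With veliparib 4 rose and 7 fell, against 17.2% and 23.2%. The list medians were 0.13, -0.13 and 0.028, beside medians over all genes of -0.018, 0.00091 and -0.0034. TRIM22, an interferon-induced antiviral protein, rose by 0.64 with UPF1069 and by 0.45 with veliparib.

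Among the siRNAs, siPARP2_A lowered PARP14 and PARP9 and siPARP2_B raised PARP12, which were the largest differences of the interferon-inducible members. PARP14 had 4.09 and 3.33 normalised reads per M with siNC, 4.35 and 4.396 with siPARP1_A, 2.53 and 2.14 with siPARP1_B, 0.612 and 0.625 with siPARP2_A and 5.35 and 5.35 with siPARP2_B. No siRNA group overlapped siNC. The siPARP2_A libraries held 10 reads each, against 63 and 58 with siNC, so the mean was 6-fold lower. On the log2 scale PARP14 fell by 1.54 with siPARP2_A (SE 0.15, adjusted p = 9.19e-09) and by 2.57 in edgeR's estimate from reads, which adds a smaller prior count. It also fell by 0.50 with siPARP1_B (adjusted p = 0.0115) and rose by 0.44 with siPARP2_B (adjusted p = 0.0146), while siPARP1_A gave 0.19 (adjusted p = 0.292). The siPARP1_B call was lost without siNC replicate 1 (adjusted p = 0.122), without siPARP1_B replicate 2 (0.0973) and with DESeq2 (0.136). The siPARP2_B call was lost without siNC replicate 2 (adjusted p = 0.14), without either siPARP2_B library (0.0545 and 0.0547) and with DESeq2 (0.0871).

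PARP9 followed the order of PARP14 over the siRNA groups. It had 58.7 and 54.3 normalised reads per M with siNC, 62.7 and 61.2 with siPARP1_A, 50.3 and 48.4 with siPARP1_B, 31.7 and 32.0 with siPARP2_A and 65.8 and 61.3 with siPARP2_B. PARP9 fell by 0.81 with siPARP2_A (SE 0.07, adjusted p = 1.00e-09), a 1.77-fold lower mean. Smaller differences passed with siPARP1_B (-0.19, adjusted p = 0.0329) and siPARP2_B (0.17, adjusted p = 0.0414), and siPARP1_A gave 0.13 (adjusted p = 0.119). The siPARP1_B call was lost without siNC replicate 1 (adjusted p = 0.218), without siPARP1_B replicate 1 (0.06) or replicate 2 (0.169), and with edgeR (0.0767) and DESeq2 (0.18). The siPARP2_B call was lost without siNC replicate 2 (adjusted p = 0.254) and without siPARP2_B replicate 1 (0.26).

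DTX3L, whose exons overlap those of PARP9 on the opposite strand, passed in the same directions as PARP9 with siPARP1_B, siPARP2_A and siPARP2_B. It had 48.1 and 45.0 normalised reads per M with siNC, 47.6 and 49.8 with siPARP1_A, 31.4 and 30.5 with siPARP1_B, 18.7 and 16.5 with siPARP2_A and 68.8 and 69.8 with siPARP2_B. DTX3L fell by 0.57 with siPARP1_B and by 1.36 with siPARP2_A, a 2.64-fold lower mean, and rose by 0.56 with siPARP2_B (adjusted p = 2.23e-06, 4.51e-13 and 6.86e-07). Over the 10 siRNA libraries, log2 levels of PARP9 and PARP14 had r = 0.991, of PARP9 and DTX3L r = 0.956 and of PARP14 and DTX3L r = 0.983. Over the 8 inhibitor libraries the same pairs had r = 0.772, 0.808 and 0.814. These r values are descriptive, over libraries that share treatments and normalisation. Among the siRNA libraries those with siPARP2_A were lowest for PARP9, PARP14 and DTX3L alike. The r values without that group were not computed.

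PARP12 had a pattern of its own within the interferon-inducible group. It had 13.5 and 14.99 normalised reads per M with siNC, 16.0 and 15.2 with siPARP1_A, 20.6 and 19.8 with siPARP1_B, 14.3 and 16.3 with siPARP2_A and 34.4 and 38.5 with siPARP2_B. The siPARP2_B libraries stood highest, at a 2.56-fold higher mean, and the siPARP1_B libraries came next. PARP12 rose by 1.30 with siPARP2_B (SE 0.099, adjusted p = 2.12e-11) and by 0.47 with siPARP1_B (adjusted p = 4.45e-04), while PARP14 and PARP9 fell with siPARP1_B. With siPARP2_A the PARP12 difference was 0.091 (95% interval -0.11 to 0.30), where PARP14 and PARP9 fell.

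PARP10 was higher with both siPARP1 sequences. It had 22.8 and 24.6 normalised reads per M with siNC, 34.3 and 29.8 with siPARP1_A, 28.2 and 29.8 with siPARP1_B, 18.7 and 20.1 with siPARP2_A and 17.9 and 24.1 with siPARP2_B. PARP10 rose by 0.42 with siPARP1_A (SE 0.11, adjusted p = 0.0022) and by 0.28 with siPARP1_B (adjusted p = 0.0415), and fell by 0.27 with siPARP2_A (adjusted p = 0.0384). The libraries with siPARP2_B overlapped siNC, with a difference of -0.18 (adjusted p = 0.147), which was -0.39 without siPARP2_B replicate 2 (adjusted p = 0.0039). The siPARP1_A call was lost without siPARP1_A replicate 1 (adjusted p = 0.0585). The siPARP1_B and siPARP2_A calls were each lost without any 1 of the 4 libraries compared. The differences were then 0.23 to 0.33 with siPARP1_B and -0.33 to -0.22 with siPARP2_A. Both calls were also lost with DESeq2 (adjusted p = 0.0621 and 0.0974), and that of siPARP2_A after GC and length correction (-0.19, adjusted p = 0.059).

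**Figure D2:**
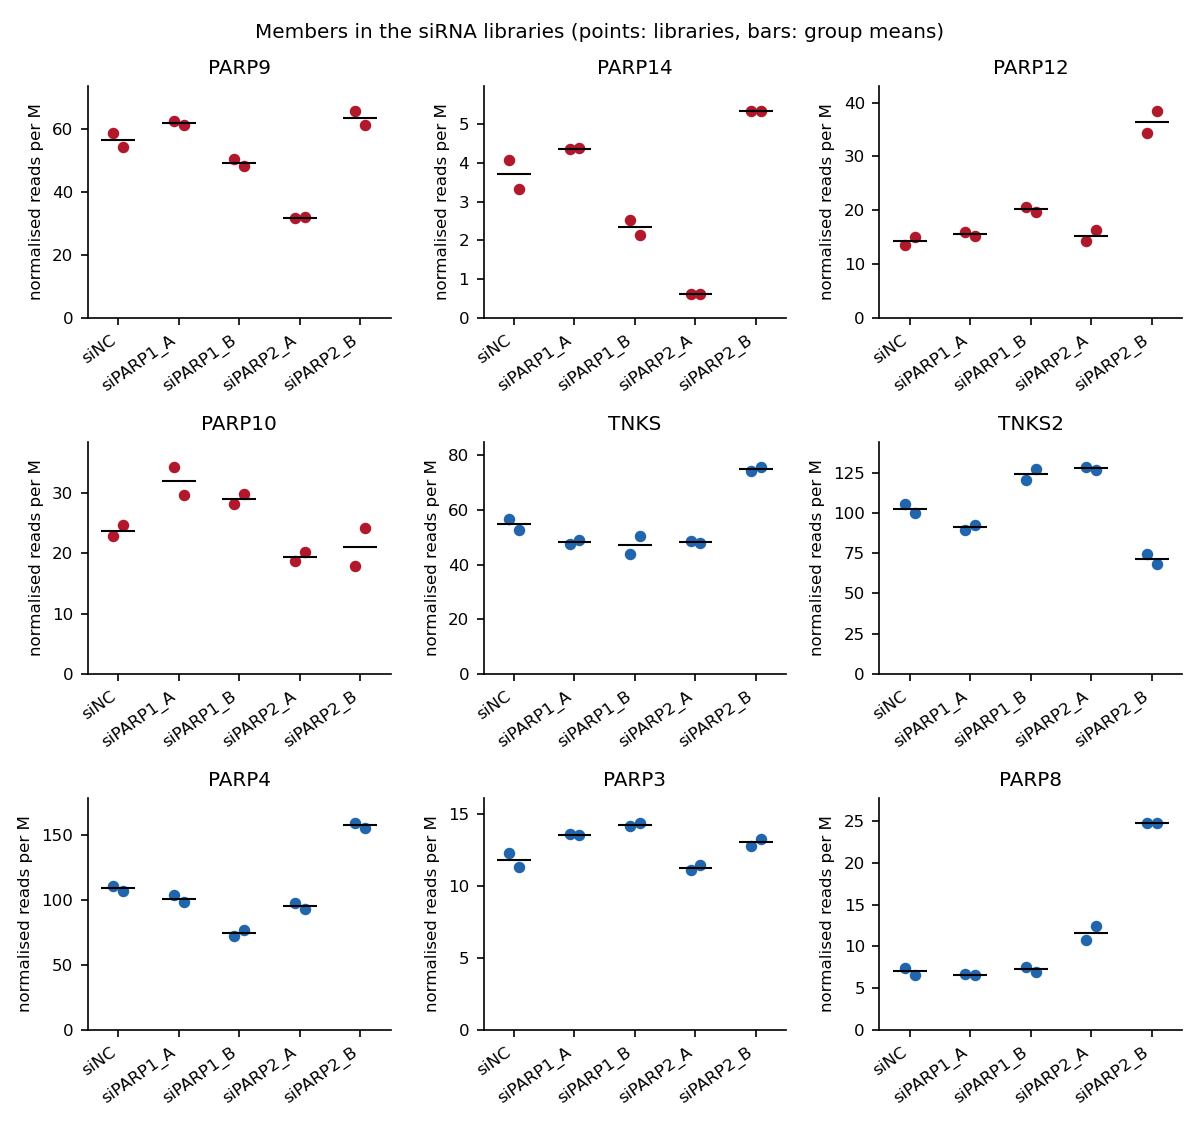
Level in normalised reads per M of the 9 tested members in each siRNA library, with points for libraries and bars for group means, interferon-inducible genes in red and the others in blue. PARP14 and PARP9 are lowest with siPARP2_A, and PARP12, PARP8, PARP4 and TNKS are highest with siPARP2_B, where TNKS2 is lowest.

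The interferon-stimulated list moved in opposite directions with the siPARP2 sequences. With siPARP2_B, 34 of 39 tested list genes rose and 2 fell, against 30.9% and 35.2% of all genes, with a list median of 1.55 beside -0.026 over all genes. RSAD2 rose by 6.94, IFIT1 by 6.75 and OASL by 6.54, which encode antiviral proteins, and IFIT1 went from 4.09 and 4.19 normalised reads per M with siNC to 547 and 561. With siPARP2_A, 22 fell and 1 rose, against 24.9% and 24.5% of all genes, and the list median was -0.44. With siPARP1_B 16 fell and the other 23 did not pass, with 23.9% of all genes falling, and with siPARP1_A 15 rose and 7 fell, against 25.5% and 28.9%. PARP9, PARP14 and PARP12 thus passed as higher in the comparison in which most list genes rose, at 0.17, 0.44 and 1.30, all below the list median, and PARP10 did not pass there.

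The upstream genes of interferon signalling were called in both directions with both siPARP2 sequences. STAT2, a factor that interferon receptors activate, rose with siPARP2_B by 1.45, and IRF1, a factor that interferon induces, by 1.69. With siPARP2_A, STAT2 gave 0.17, which did not pass but was 0.30 and called without siNC replicate 2 (adjusted p = 0.0168) and 0.27 after GC and length correction (0.0064). JAK1, a kinase of the interferon receptors, fell by 0.73 from 6.10 and 4.59 to 2.87 and 2.75 normalised reads per M. Of 15 tested genes on the list of interferon receptors, kinases and factors, 3 rose and 4 fell with siPARP2_A, where 24.5% of all genes rose and 24.9% fell. With siPARP2_B 8 rose and 3 fell, against 30.9% and 35.2%. IRF9, a DNA-binding partner of STAT2, was counted below 1 in all 18 libraries, so its differences were not tested. Whether this reflects little IRF9 RNA or reads lost in counting is not known. Summed stromal markers were 8.98 to 9.19 with siPARP2_B and 1.94 to 4.11 in the other siRNA groups, summed endothelial markers were 8.23 to 8.51 against 0.967 to 3.69, and summed immune markers were 0 to 0.0595 with siPARP2_B. Summed luminal markers were 2548 to 2559 with siPARP2_B, against 6716 to 7080 with siNC and 3666 to 3709 with siPARP2_A. Their part in the differences of the members was not tested.

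**Figure D3:**
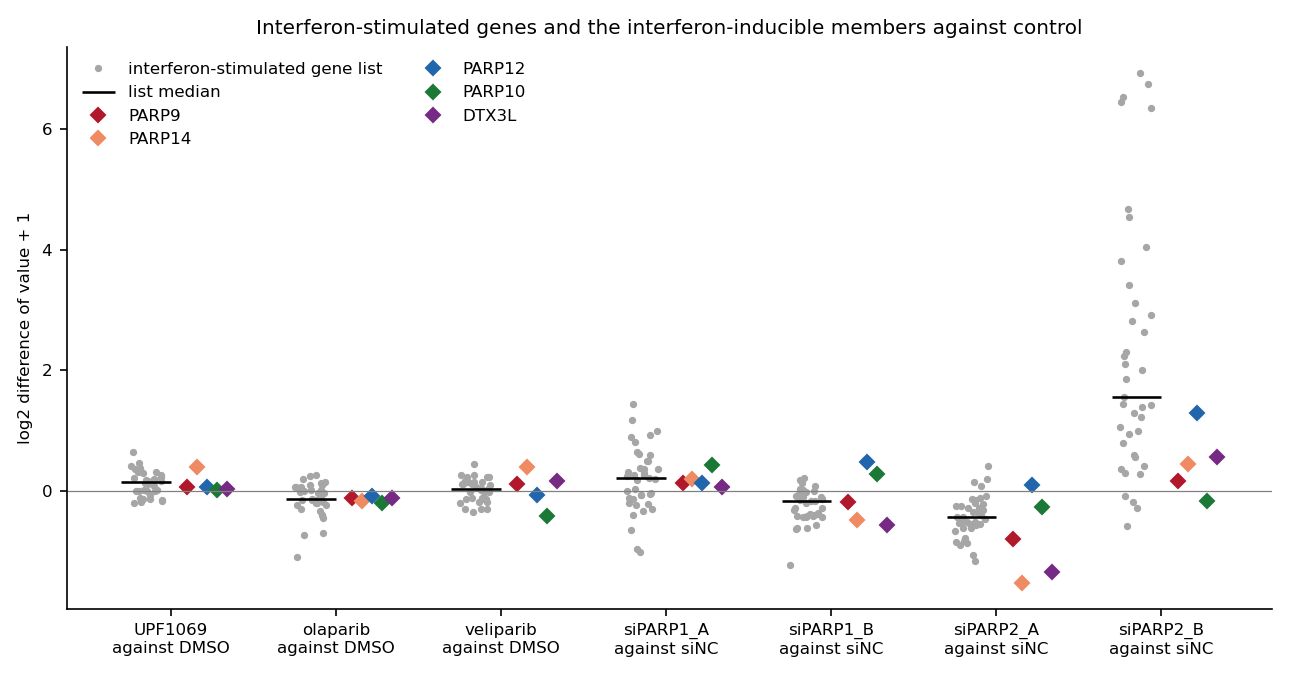
Differences against control on the scale of log2(value + 1): grey points are the tested genes of the interferon-stimulated list, black lines their median, and diamonds PARP9, PARP14, PARP12, PARP10 and DTX3L. The list median is 1.55 with siPARP2_B and -0.44 with siPARP2_A, where PARP14 and DTX3L lie below every list gene.

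The tankyrases rose together with olaparib and diverged with most of the siRNAs. TNKS had 59.5 and 62.3 CPM with DMSO, 65.1 and 65.0 with UPF1069, 74.1 and 77.7 with olaparib and 65.5 and 68.1 with veliparib. TNKS2 had 106 and 107 CPM with DMSO, 105 and 105 with UPF1069, 131 and 138 with olaparib and 121 and 117 with veliparib. Each olaparib library lay above every other inhibitor library for both genes. With olaparib TNKS rose by 0.31 (SE 0.046, adjusted p = 6.13e-06) and TNKS2 by 0.34 (SE 0.041, adjusted p = 3.31e-07), and these calls held under all alternatives tried. Summed luminal markers were 3386 to 3405 CPM with olaparib and 5048 to 5395 in the other inhibitor libraries, and summed endothelial markers 5.39 to 5.86 against 8.58 to 11.3. Their part in the olaparib differences of the members was not tested.

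Veliparib gave smaller differences of both tankyrases, which depended on the correction for GC content. TNKS rose by 0.13 (adjusted p = 0.0274) and TNKS2 by 0.16 (adjusted p = 0.0026). With GC content and exon length corrected for, TNKS was at -0.035 (adjusted p = 0.562) and TNKS2 at 0.084 (adjusted p = 0.0532), and TNKS also lost its call without DMSO replicate 1 (adjusted p = 0.246). With UPF1069, TNKS was at 0.094 (adjusted p = 0.15) and TNKS2 at -0.015 (95% interval -0.10 to 0.07).

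With the siRNAs, TNKS and TNKS2 had opposite signs in 3 of the 4 comparisons with siNC. TNKS had 56.8 and 52.7 normalised reads per M with siNC, 47.5 and 48.9 with siPARP1_A, 44.0 and 50.4 with siPARP1_B, 48.6 and 47.8 with siPARP2_A and 74.1 and 75.8 with siPARP2_B. TNKS2 had 105 and 99.98 with siNC, 89.5 and 92.5 with siPARP1_A, 121 and 127 with siPARP1_B, 129 and 127 with siPARP2_A and 74.7 and 68.4 with siPARP2_B. No siRNA group overlapped siNC for either gene. With siPARP2_B TNKS rose by 0.45 (SE 0.073, adjusted p = 7.81e-06) and TNKS2 fell by 0.52 (SE 0.062, adjusted p = 8.42e-08), a 1.37-fold higher and a 1.44-fold lower mean. TNKS2 rose by 0.27 with siPARP1_B (adjusted p = 0.0013) and by 0.31 with siPARP2_A (adjusted p = 2.02e-04).

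The lower TNKS levels with the other siRNAs were small and fragile. TNKS fell by 0.18 with siPARP1_A (adjusted p = 0.043), by 0.21 with siPARP1_B (adjusted p = 0.0235) and by 0.18 with siPARP2_A (adjusted p = 0.0449). None of these calls held with DESeq2, where the adjusted p was 0.139, 0.133 and 0.112, or without siNC replicate 1, where it was 0.252, 0.171 and 0.255. Leaving out a treated library also ended them, for siPARP1_A replicate 1 or 2 (adjusted p = 0.176 and 0.0861), siPARP1_B replicate 1 (0.314) and siPARP2_A replicate 1 or 2 (0.103 and 0.161). With GC content and exon length corrected for, the siPARP2_A difference of TNKS was -0.039 (adjusted p = 0.628). TNKS2 fell by 0.17 with siPARP1_A (adjusted p = 0.0227). That call was lost with DESeq2 (adjusted p = 0.074) and after GC and length correction (-0.10, adjusted p = 0.0807). It was also lost without siNC replicate 1 (difference -0.13) or siPARP1_A replicate 1 (-0.15). Over the 8 inhibitor libraries log2 levels of TNKS and TNKS2 had r = 0.903, and over the 10 siRNA libraries r = -0.802, as a description over libraries that share treatments. Olaparib libraries were highest for both genes, and siPARP2_B libraries were highest for TNKS and lowest for TNKS2. The r values without these groups were not computed.

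**Figure D4:**
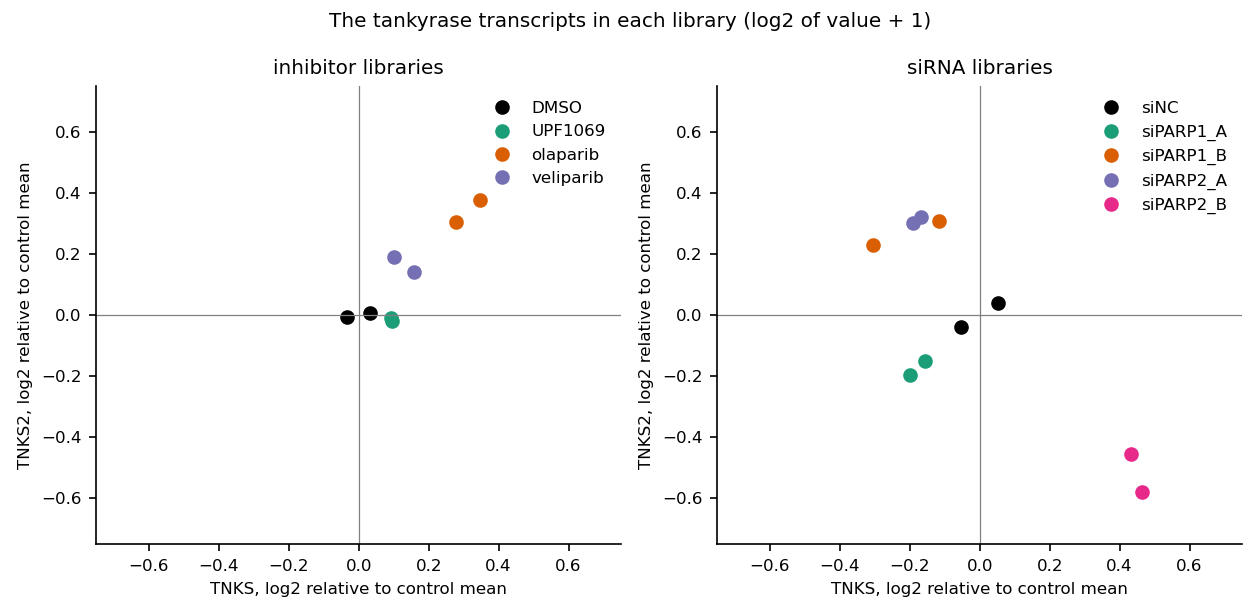
TNKS against TNKS2 in each library as log2(value + 1) relative to the mean of the controls, with inhibitor libraries on the left and siRNA libraries on the right. The olaparib libraries lie at the upper right, above the controls for both genes, and the siPARP2_B libraries at the lower right, with more TNKS and less TNKS2.

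Genes of tankyrase partners moved in both directions wherever the tankyrases differed. Of 20 tested partners, 8 rose and 4 fell with olaparib, against 25.8% and 26.8% of all genes, with a list median of 0.024. RNF146, the ligase that recognises tankyrase-made chains, rose by 0.46 with olaparib, and MDC1, a DNA damage scaffold, fell by 1.29. With siPARP2_B 10 of 19 partners rose and 6 fell, against 30.9% and 35.2% of all genes, with a median of 0.23. AMOTL1, an angiomotin that restrains YAP, fell with each of the 4 siRNAs. In the order siPARP1_A, siPARP1_B, siPARP2_A and siPARP2_B it fell by 2.54, 1.66, 1.24 and 0.84. The other angiomotins on the list did not follow it throughout. AMOT was called at 1.19 with siPARP1_A and at -1.11 with siPARP2_B, where AMOTL2 was called at 1.44. Of the Wnt and beta-catenin list, 4 of 14 tested genes rose and 4 fell with olaparib, and 4 of 13 rose and 4 fell with siPARP2_B. AXIN2, a feedback gene much used as a readout of that pathway, gave -0.20 with olaparib (adjusted p = 0.13), which was -0.36 without DMSO replicate 2 (adjusted p = 0.0234), and 0.23 with siPARP2_B (adjusted p = 0.227). It passed as lower with siPARP1_A (-0.48) and siPARP2_A (-0.40), calls lost without siNC replicate 1 (adjusted p = 0.115 and 0.208), with DESeq2 (0.126 and 0.198), without siPARP1_A replicate 1 (0.259) and without any 1 of the other 3 libraries of the siPARP2_A comparison (0.0631 to 0.186).

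PARP4, the vault particle member, rose with olaparib and with siPARP2_B and fell with siPARP1_B. It had 78.8 and 79.0 CPM with DMSO, 82.8 and 85.1 with UPF1069, 99.8 and 105 with olaparib and 93.2 and 88.4 with veliparib, and no group overlapped DMSO. PARP4 rose by 0.37 with olaparib (SE 0.044, adjusted p = 2.66e-07) and by 0.20 with veliparib (adjusted p = 9.62e-04), and was at 0.089 with UPF1069 (adjusted p = 0.152). After GC and length correction it was the 1 member still called with veliparib, at 0.15 (adjusted p = 0.0027).

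In the siRNA libraries PARP4 had 111 and 107 normalised reads per M with siNC, 104 and 98.4 with siPARP1_A, 72.4 and 76.5 with siPARP1_B, 97.9 and 92.8 with siPARP2_A and 159 and 155 with siPARP2_B. The groups did not overlap siNC, and siPARP1_B stood lowest and siPARP2_B highest. PARP4 fell by 0.54 with siPARP1_B (SE 0.061, adjusted p = 1.23e-07), rose by 0.53 with siPARP2_B (adjusted p = 3.48e-08) and was at -0.11 with siPARP1_A (adjusted p = 0.148). It fell by 0.19 with siPARP2_A (adjusted p = 0.0126), a call lost without siNC replicate 1 (adjusted p = 0.0705) and without siPARP2_A replicate 2 (0.126). MVP, the major vault protein, rose by 0.64 with olaparib and 1.02 with siPARP2_B and fell by 0.66 with siPARP1_A and 0.59 with siPARP1_B. It also fell by 0.22 with siPARP2_A (adjusted p = 0.0337). That call was lost with DESeq2 (adjusted p = 0.111) and after GC and length correction (-0.11, adjusted p = 0.222). Leaving out siNC replicate 1 or siPARP2_A replicate 1 or 2 also ended it, with differences of -0.18, -0.24 and -0.21. With veliparib, where PARP4 rose, MVP fell by 0.25 (adjusted p = 0.0047), a call lost without DMSO replicate 1 (0.0573) or veliparib replicate 1 (0.0584), and was at 0.0063 after GC and length correction. TEP1, the other protein of the vault, rose by 0.26 with olaparib and 0.79 with siPARP2_B and fell by 0.61 with siPARP2_A. The olaparib call of TEP1 was lost without DMSO replicate 2 (adjusted p = 0.052) or olaparib replicate 1 (0.0528).

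PARP3, which acts in DNA end joining, rose with olaparib. It had 16.1 and 15.3 CPM with DMSO, 17.5 and 17.1 with UPF1069, 19.1 and 19.6 with olaparib and 12.9 and 14.3 with veliparib, and no group overlapped DMSO. PARP3 rose by 0.29 with olaparib (SE 0.07, adjusted p = 0.0016) and was at 0.13 with UPF1069 (adjusted p = 0.178). It fell by 0.19 with veliparib (adjusted p = 0.0328), a call lost with edgeR (0.0599), DESeq2 (0.185) and the GC and length correction (-0.024, adjusted p = 0.829), and without either DMSO library (0.214 and 0.0618) or veliparib replicate 1 (0.219). In the siRNA libraries PARP3 ranged from 11.1 to 14.4 normalised reads per M, with 12.3 and 11.3 in siNC, and no siRNA passed. The nearest was siPARP1_B at 0.25 (adjusted p = 0.0533), which passed with edgeR (adjusted p = 0.0305). Of 8 tested end-joining genes, 3 fell with olaparib, where 26.8% of all genes fell, and the other 5 did not pass. The 3 were XRCC5, a Ku subunit, by 0.21, PRKDC, the kinase it recruits, by 0.19 and the nuclease gene DCLRE1C by 0.34, the latter lost without DMSO replicate 1 (adjusted p = 0.063) or olaparib replicate 1 (0.151).

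PARP8 had the largest difference of any member outside the interferon-inducible group. It had 7.40 and 6.60 normalised reads per M with siNC, 6.65 and 6.56 with siPARP1_A, 7.53 and 6.98 with siPARP1_B, 10.7 and 12.4 with siPARP2_A and 24.7 and 24.8 with siPARP2_B. Both siPARP2 groups lay above all other siRNA libraries. PARP8 rose by 1.69 with siPARP2_B (SE 0.12, adjusted p = 2.58e-12), a 3.54-fold higher mean, and by 0.65 with siPARP2_A (adjusted p = 5.35e-05), a 1.65-fold higher mean. With siPARP1_A and siPARP1_B it was at -0.072 (95% interval -0.31 to 0.17) and 0.045 (-0.19 to 0.28). In the inhibitor libraries PARP8 had 5.57 and 6.0003 CPM with DMSO, 5.83 and 6.04 with UPF1069, 8.35 and 9.61 with olaparib and 5.68 and 5.32 with veliparib. It rose by 0.56 with olaparib (SE 0.093, adjusted p = 3.25e-05), a 1.55-fold higher mean. With UPF1069 it was at 0.033 and with veliparib at -0.061, and both groups overlapped DMSO. The calls of PARP8 with olaparib, siPARP2_A and siPARP2_B held under all alternatives tried.

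Counted over the members, 6 of 9 passed with olaparib, where 52.5% of all genes were called, and 6 of 9 with veliparib, where 40.4% were. With olaparib all 5 tested members outside the interferon-inducible group rose, where 25.8% of all genes rose, and of the 4 interferon-inducible members PARP10 fell. Their median differences were 0.34 and -0.14. With veliparib PARP14, PARP4, TNKS2 and TNKS rose and PARP10 and PARP3 fell. With siPARP1_A 3 of 9 passed against 54.4% of all genes, with siPARP1_B 7 of 9 against 40.4%, with siPARP2_A 7 of 9 against 49.4% and with siPARP2_B 7 of 9 against 66.1%. These shares lie near those of all genes in several comparisons, and the members were chosen with results of these data known.

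**Figure D5:**
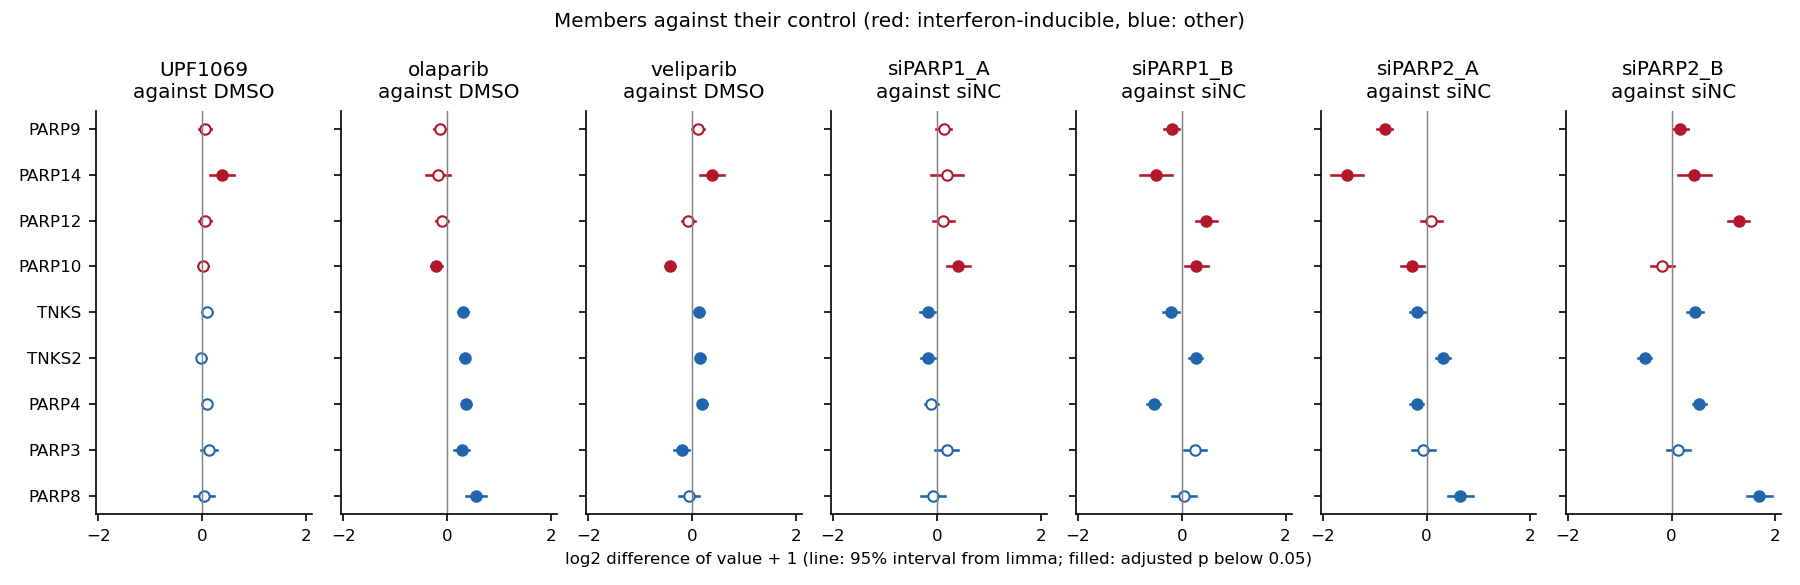
Difference of each tested member against its control on the scale of log2(value + 1), with lines for the 95% interval of limma and filled points for an adjusted p below 0.05. PARP14 with siPARP2_A at -1.54 and PARP8 and PARP12 with siPARP2_B at 1.69 and 1.30 lie farthest from 0.

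The 3 pairs of compounds were compared at the same dose and time. Between UPF1069 and olaparib 8 of 9 members passed, against 51.2% of all genes, with 24.2% higher and 27.0% lower with UPF1069. All 4 interferon-inducible members were higher with UPF1069, PARP14 by 0.56, PARP10 by 0.22, PARP9 by 0.19 and PARP12 by 0.16, and PARP8, TNKS2, PARP4 and TNKS were lower by 0.52, 0.36, 0.28 and 0.22. The PARP12 call (adjusted p = 0.0307) was lost without any 1 of the 4 libraries (differences of 0.14 to 0.17). It was also lost with DESeq2 (adjusted p = 0.0742) and after GC and length correction (0.097, adjusted p = 0.121). The PARP9 call (adjusted p = 0.0078) was lost without UPF1069 replicate 1 (difference 0.19) or olaparib replicate 1 (0.16). PARP3 differed by -0.15 (95% interval -0.30 to -0.0071, adjusted p = 0.0742). It passed after GC and length correction (-0.21, adjusted p = 0.0072) and with only the groups compared in the fit (adjusted p = 0.0273).

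Olaparib and veliparib, which share their named targets, differed in 8 of 9 members, against 59.5% of all genes, with 31.7% higher and 27.7% lower with olaparib. PARP8 was higher with olaparib by 0.62, PARP3 by 0.48, PARP10 by 0.22, TNKS by 0.18, TNKS2 by 0.18 and PARP4 by 0.17, and PARP14 and PARP9 were lower by 0.55 and 0.24. PARP12 differed by -0.029 (95% interval -0.15 to 0.092). After GC and length correction PARP10 turned to -0.10 (adjusted p = 0.0223), and the other 7 kept their direction and call. The PARP4 call was lost without olaparib replicate 2 (adjusted p = 0.0509).

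UPF1069 and veliparib differed in 4 of 9 members, against 50.8% of all genes, of which 25.9% were higher and 24.9% lower with UPF1069. PARP10 was higher with UPF1069 by 0.44 (adjusted p = 1.17e-07) and PARP3 by 0.33 (adjusted p = 5.32e-04), and TNKS2 and PARP4 were lower by 0.18 and 0.11 (adjusted p = 8.59e-04 and 0.0402). After GC and length correction PARP10 was at 0.0051, PARP4 at -0.047 and TNKS2 at -0.075, none of which passed, PARP3 was at 0.16 (adjusted p = 0.0478), and TNKS moved from -0.037 to 0.11 (adjusted p = 0.0185). The PARP4 call was also lost without UPF1069 replicate 1 or 2 (adjusted p = 0.236 and 0.0877) or veliparib replicate 1 (0.134). PARP14 differed by 0.0032 (95% interval -0.23 to 0.23). PARP8 moved from 0.094 to 0.30 with the correction (adjusted p = 0.0102).

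Each target had siRNA sequences A and B, which were compared directly. siPARP1_A and siPARP1_B differed in 5 of 9 members, against 54.8% of all genes, with 28.4% higher and 26.5% lower with siPARP1_A. PARP14 by 0.69, PARP4 by 0.44 and PARP9 by 0.32 were higher with siPARP1_A, and TNKS2 and PARP12 were lower by 0.44 and 0.35. After GC and length correction PARP10 also passed, at 0.22 (adjusted p = 0.0295). Called in the same direction with both were PARP10, higher, and TNKS, lower, where 7.83% of all genes were higher and 11.4% lower with both. TNKS2 was called in opposite directions, as were 7.04% of all genes. siPARP2_A and siPARP2_B differed in 7 of 9 members, against 64.8% of all genes, with 34.3% higher and 30.6% lower with siPARP2_A. PARP14 was lower with siPARP2_A by 1.97, PARP12 by 1.20, PARP8 by 1.04, PARP9 by 0.97, PARP4 by 0.72 and TNKS by 0.63. TNKS2 was higher by 0.83. After the GC and length correction PARP10 at -0.24 and PARP3 at -0.22 also passed (adjusted p = 0.0155 and 0.0477). PARP8 was the 1 member higher with both siPARP2 sequences, as were 11.9% of all genes. PARP14, PARP9, PARP4, TNKS and TNKS2 were called in opposite directions, as were 10.8% of all genes.

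The mean of the siPARP2 sequences was compared with the mean of the siPARP1 sequences, and all 9 members passed, against 65.5% of all genes, with 33.3% higher and 32.2% lower. PARP8 was higher with siPARP2 by 1.18 (SE 0.082, adjusted p = 4.50e-12), PARP4 by 0.49, PARP12 by 0.39 and TNKS by 0.33. PARP10 was lower by 0.58, PARP14 by 0.40, PARP9 by 0.29, PARP3 by 0.18 and TNKS2 by 0.15. For PARP14, PARP9, PARP4, TNKS and TNKS2 this mean covers siPARP2 sequences that were called in opposite directions against siNC. The PARP3 call (adjusted p = 0.0299) was lost without siPARP2_A replicate 1, siPARP2_B replicate 1 or any 1 siPARP1 library (0.0533 to 0.0745) and with DESeq2 (0.109).

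The genes most like each member were found among 11928 genes by the lower of the Pearson correlations of log2 levels over the 8 inhibitor and over the 10 siRNA libraries, which share treatments and normalisation. CLEC7A, a receptor for fungal glucans, came first for both PARP9 (lower r 0.925) and PARP14 (0.881). CRISP3 (0.86) and SSH2 (0.855) followed for PARP9, and GIMAP2 (0.836) and CDC42SE1 (0.832) for PARP14. The genes most like PARP12 were SFN, the epithelial protein stratifin (0.905), TINAGL1 (0.896) and IRS1, an adaptor of the insulin receptor (0.879). Those most like PARP10 were AGFG2 (0.954), BTBD2 (0.938) and LLGL1, a cell polarity protein (0.929). VPS13B, a lipid transfer protein of the Golgi, came first for PARP4 (0.965), and LIMA1, an actin-binding protein, for TNKS (0.9598). JPX, a noncoding RNA gene, came first for TNKS2 (0.972), MAPRE2, a microtubule end-binding protein, for PARP8 (0.968) and SNN for PARP3 (0.953). PARP4 and TNKS had r = 0.942 and 0.912 with each other in the inhibitor and siRNA libraries.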

How the data were processed

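Total RNA of LNCaP cells was sequenced as NEBNext Ultra RNA libraries, per the labels' protocols. Both tables hold reads per M of library sizes that the authors scaled. The inhibitor table was deposited as CPM with scale factors of 0.9906 to 1.0094, and the siRNA table as a normalised signal with factors of 0.891 to 1.0366. Reads recovered from the steps between values were whole for 100% of values within 0.01 of a read. Per the submitters' processing notes, HTSeq 0.6.1, TopHat2 2.1.0, bcl2fastq 2.18 and edgeR 3.12.0 were used with build hg19, with no roles given. The strand setting of counting is not given in the sources used here.

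Groups came from the labels. Genes whose table mean reached 1 were tested with limma 3.58.1 (trend, 2-sided) on log2(value + 1) of the deposited values in R 4.3.3, all groups of a table in 1 fit, with Benjamini-Hochberg adjustment over all tested genes and a threshold of 0.05. Alternatives were edgeR 4.0.16 (quasi-likelihood, TMM or RLE) and DESeq2 1.42.0 on recovered reads, a pseudocount of 0.25, no filter, a mean of at least 5, only the groups compared, a replicate block, correction for GC content and exon length (GENCODE v29), and leaving out each library. edgeR called 3242, 7144 and 5470 genes with UPF1069, olaparib and veliparib, and 6958, 4997, 6329 and 8455 with siPARP1_A, siPARP1_B, siPARP2_A and siPARP2_B. The method was tested on simulated data. The text names all 10 members and, of each gene list, up to 3 genes with the largest called difference per comparison, plus genes a sentence on a member needs, and the 3 genes most like each interferon-inducible member and the 1 most like each other member. Members and lists were chosen with earlier results of these data known. Where a symbol occurred more than once, the feature with the highest mean was used.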

Additional observations from a re-analysis of the deposited data

Results flagged for a closer look

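The siRNA sequences against 1 target were compared directly, and members whose difference between sequences A and B passed limma's test (Benjamini-Hochberg adjusted p below 0.05) are given as A minus B in log2(value + 1). Of the 9 members tested, 5 differed between the siPARP1 sequences, as did 54.8% of all genes. PARP14 differed by 0.69, PARP4 by 0.44 and PARP9 by 0.32, each higher with siPARP1_A. TNKS2 differed by -0.44 and PARP12 by -0.35, both higher with siPARP1_B. PARP10 also passed after GC and length correction (0.22, adjusted p = 0.0295).

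Between the siPARP2 sequences 7 of 9 differed, as did 64.8% of all genes. After GC and length correction PARP10 (-0.24, adjusted p = 0.0155) and PARP3 (-0.22, adjusted p = 0.0477) also passed. PARP14 differed by -1.97, PARP12 by -1.20, PARP8 by -1.04, PARP9 by -0.97, PARP4 by -0.72 and TNKS by -0.63, all higher with siPARP2_B, and TNKS2 differed by 0.83. PARP1 stood at 160 and 145 normalised reads per M with siPARP2_B and at 409 and 395 with siPARP2_A. In the siPARP1 libraries, where PARP1 stood at 4.78 to 9.05, PARP8 differed from siNC by -0.072 with sequence A and 0.045 with sequence B, and neither passed. The part of PARP1 in the differences between the siPARP2 sequences was not tested.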

How the results depend on the processing

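Of the 117 differences of members over all comparisons, 78 passed in the fit as reported, 51 of these kept their call under every alternative, and 27 lost it under at least 1. Of those not called, 14 passed under at least 1 alternative. The number of members called with UPF1069 was 1 as reported, 0 with DESeq2 (1 at unadjusted p below 0.05), 0 with limma and a mean of at least 5, which leaves PARP14 untested (0 at unadjusted p below 0.05), 1 with edgeR, 3 with only the groups compared in the fit, where 5041 in place of 3245 genes were called, and 2 with the GC and length correction. With veliparib it was 6, and 1 after that correction. With DESeq2 it was 1 in place of 3 for siPARP1_A and 3 in place of 7 for siPARP1_B. Leaving out 1 library at a time gave 0 to 1 with UPF1069, 3 to 7 with veliparib, 0 to 3 with siPARP1_A (each 0 by limma, with 1 at unadjusted p below 0.05), 3 to 6 with siPARP1_B and 4 to 6 with siPARP2_A. In the other comparisons the count stayed within 1.5 times its value. Among differences of the named genes called as reported or under the alternative, those whose sign turned did so under the GC and length correction. It gave TNKS -0.035, MVP 0.0063 and NKD2 0.047 with veliparib. It gave TNKS 0.11 between UPF1069 and veliparib, and PARP10 -0.10 between olaparib and veliparib. Signs of uncalled differences also turned, such as PARP12 with veliparib from -0.068 to 0.036 and PARP9 between UPF1069 and veliparib from -0.054 to 0.060. The cause was not tested.

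Replicate numbers are shared by the groups, but the labels give no shared day or batch. Within each group the difference between replicate 1 and replicate 2 was taken for every gene. Correlations of these differences between groups ran from -0.141 to 0.115. No pairing by number was detected, although such values cannot show that none exists, and the samples were treated as unpaired. With the replicate block the members called were 1 with UPF1069, 6 with olaparib, 6 with veliparib, 2 with siPARP1_A, 7 with siPARP1_B, 6 with siPARP2_A and 7 with siPARP2_B. The block combined with the GC correction was not run. Depth limits PARP6, with at most 9 reads per library, and PARP14 with siPARP2_A, with 10.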
